A study of Homo sapiens with 6 samples.

Results

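The TRIM (tripartite motif) genes described here are the protein-coding TRIM genes outside the chromosome 6 cluster that holds TRIM15. They were chosen by name in the gene table, as protein-coding rows whose symbol is TRIM followed by a number, and the 7 rows of TRIM10, TRIM15, TRIM26, TRIM31, TRIM39, TRIM40 and the readthrough of TRIM39 were left out. This gave 71 members of 19951 protein-coding rows and 58735 gene rows in all. The cells were Huh7, an established human liver cancer line, and the assay was RNA sequencing. There were 3 libraries of cells with a control short hairpin RNA (shcontrol) and 3 of cells with a hairpin against TRIM15 (shTRIM15). No further agent or treatment is named in the labels, and neither the number of hairpins nor whether the replicates were separate cultures is given, so p-values measure the spread between these libraries, which may be technical.

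TRIM proteins share an N-terminal block of a RING finger, which recruits ubiquitin-loaded E2 enzymes, 1 or more B-box zinc fingers and a coiled coil through which they dimerise. The C-terminal domain differs between members, binds the substrate or partner, and is the usual basis for dividing the family into classes. Members act in innate immune signalling, restriction of retroviruses, transcriptional control, the cytoskeleton and the turnover of regulatory proteins.

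Reads assigned to genes summed to 17332508 to 19556855 per library. They were recovered as whole numbers from the deposited values (FPKM, reads scaled by gene length and library size). Hepatocyte markers were present, with 10 of 10 above 0.5 FPKM on average and a summed level of 1562 to 1602 FPKM in control and 1557 to 1589 in knockdown libraries. Among markers of other cells, 0 of 5 endothelial, 2 of 7 immune, 3 of 7 fibroblast and 3 of 5 cholangiocyte markers passed that level. The fibroblast sum, most of it LUM, was 62.5 to 66.2 FPKM in control and 55.6 to 57.8 in knockdown libraries. LUM averaged 57.6 FPKM in control and 50.7 in knockdown, and COL1A2 5.39 and 4.66. COL1A1 (0.907 and 0.920) and COL3A1 (0.194 and 0.300) were not lower. The cholangiocyte sum was 259 to 261 FPKM in control and 258 to 263 in knockdown libraries. The part these markers have in the results below was not tested. TRIM15 itself was at 5.17, 5.09 and 4.88 FPKM in the control libraries and at 3.23, 2.11 and 2.51 in the knockdown libraries, so the knockdown libraries kept 51.8% of the control mean.

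Levels differed widely between members of the TRIM family in these cells. Of the 71 members, 20 were listed at 0 in all 6 libraries, 13 were above 0 but too low to test, and 38 reached at least 0.5 FPKM in 3 or more libraries, the condition for testing. The same condition was met by 11652 of the 19951 protein-coding rows. Only 4 members averaged 10 FPKM or more. TRIM28, the corepressor that KRAB zinc finger proteins bring to DNA and that recruits histone methylation, stood far above the others at 151 FPKM on average, rank 215 of all protein-coding genes. It held 44.1 to 45.6% of the summed FPKM of the family in each library. The next was TRIM24, a bromodomain coregulator of nuclear receptors and of p53, at 15.3 FPKM. The median of the 38 testable members was 4.50 FPKM, and their mean read number ran from 27.0 for TRIM74 to 11173 for TRIM28. A low read number limits the precision of the members at the bottom of that range.

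**Figure D1:**
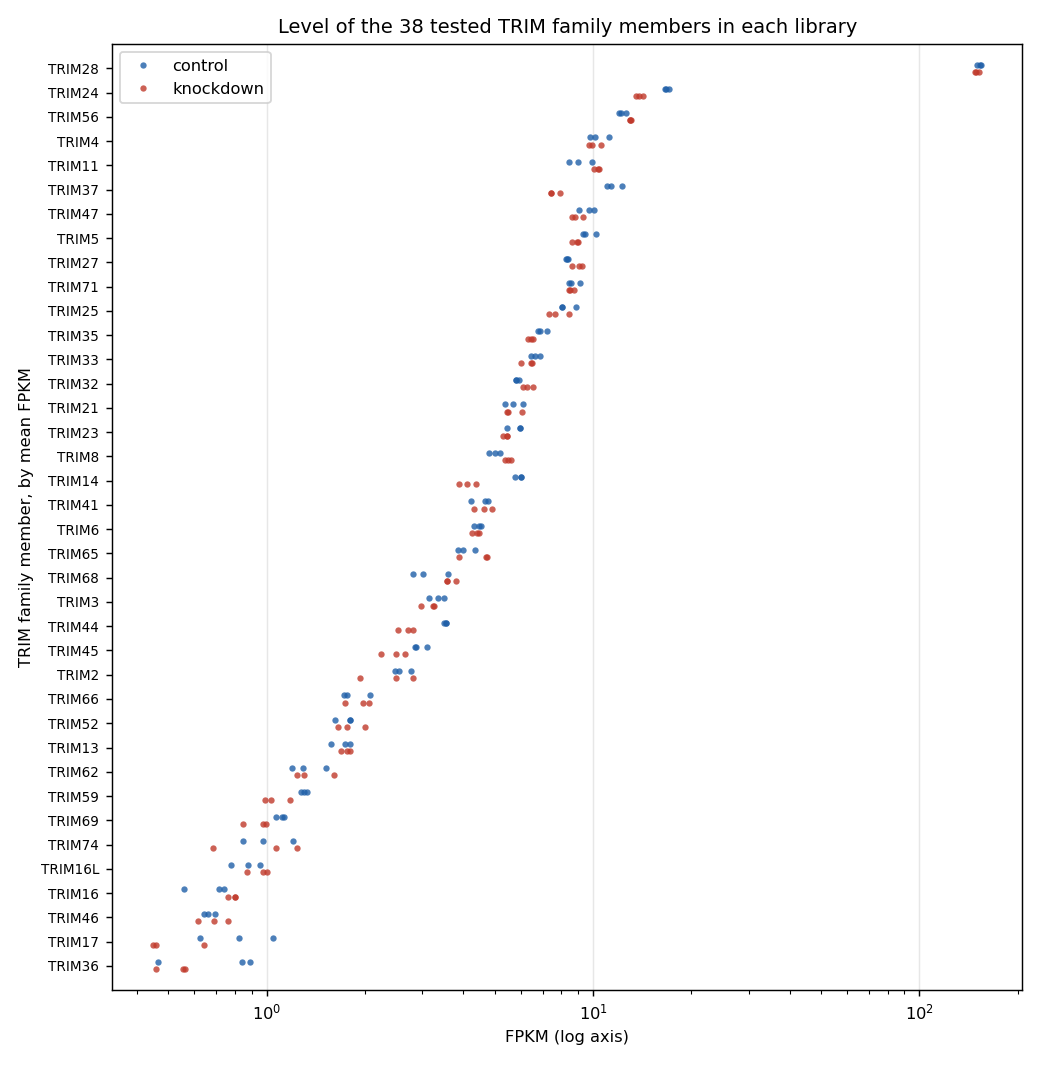
FPKM (log axis) of each of the 38 testable TRIM family members in each of the 6 libraries, ordered by mean FPKM, with control libraries in blue and knockdown libraries in red. TRIM28 lies apart at 151 FPKM on average, and the red points of TRIM24, TRIM37, TRIM14 and TRIM44 lie to the left of the blue points.

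The members listed at 0 were TRIM42, TRIM43, TRIM43B, TRIM48, TRIM49, TRIM49B, TRIM49C, TRIM49D1, TRIM49D2, TRIM51, TRIM51GP, TRIM58, TRIM60, TRIM61, TRIM63, TRIM64, TRIM64B, TRIM64C, TRIM77 and the readthrough TRIM6-TRIM34. For each of these, 3 reads in a library, the limit that a count of 0 allows, correspond to 0.0504 to 0.126 FPKM depending on gene length, and this covers counting error only. Of the 20, 13 lie on chromosome 11, which carries 23 members in all. TRIM48, TRIM49, TRIM51, TRIM64 and TRIM77 with their lettered copies belong to recently duplicated groups, and the sources used here do not say how reads that fit several copies were assigned. The readthrough TRIM6-TRIM34 shares 1158 exon bases with TRIM6 on the same strand, 29.3% of those of TRIM6. How reads in shared exons were assigned is not given either, so the 0 of the readthrough is uncertain.

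The 13 members above 0 that could not be tested averaged 0.00299 to 0.403 FPKM. The highest were TRIM50 (0.403 FPKM), TRIM7 (0.378), TRIM38 (0.301), TRIM73 (0.260), TRIM9 (0.237), TRIM29 (0.223) and TRIM67 (0.201). TRIM22, an interferon-induced antiviral gene, averaged 5.67 reads per library, and TRIM34, TRIM54, TRIM55, TRIM72 and TRIM75P averaged 2 reads or fewer. No comparison between the groups is made for these genes.

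The comparison asks whether other members of the family differ between knockdown and control libraries. The groups differ in the hairpin as well as in the TRIM15 level, and which of these a change goes with was not tested. Transcripts of 4 members, TRIM37, TRIM14, TRIM44 and TRIM24, fell, with control means 1.21 to 1.52 times the knockdown means, and no member rose past the threshold. The comparison used limma on log2(FPKM + 1), and a gene was called at an adjusted p (Benjamini-Hochberg, over the 14847 genes tested) under 0.05. Because 1 is added, fold changes of low members are understated. The 4 calls among 38 members are 10.5%, against 19% of all tested genes and 22.8% of the tested protein-coding genes. By direction, 0 of 38 members were higher by limma (8.93% of all genes) and 4 were lower (10.1% of all genes). At an unadjusted p under 0.05, 5 members were higher and 7 lower, against 16.4% and 16.3% of all tested genes. With limma voom on whole reads, 5 were called higher and 5 lower, against 15.9% and 12.3% of all tested genes. The share called lower was close to that of all genes. The gap in the share called in all depended on the setting: it was 26.3% of members against 28.2% of all genes with voom, 10.5% against 12.2% without knockdown replicate 3, 13.2% against 13.2% without control replicate 2, and 7.84% against 5.89% with no filter. The median log2 fold change of the tested members was -0.026, against 0.0014 over all genes, and the median size of the change was 0.089 against 0.098. The groups did not overlap in 16 of the 38 members (42.1%), against 37.8% of all tested genes and 44% of the tested protein-coding genes. With 3 libraries a group, an exact permutation test on a single gene cannot give a p below 0.1. In bulk RNA a smaller number of cells with a transcript and less of it per cell cannot be told apart.

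**Figure D2:**
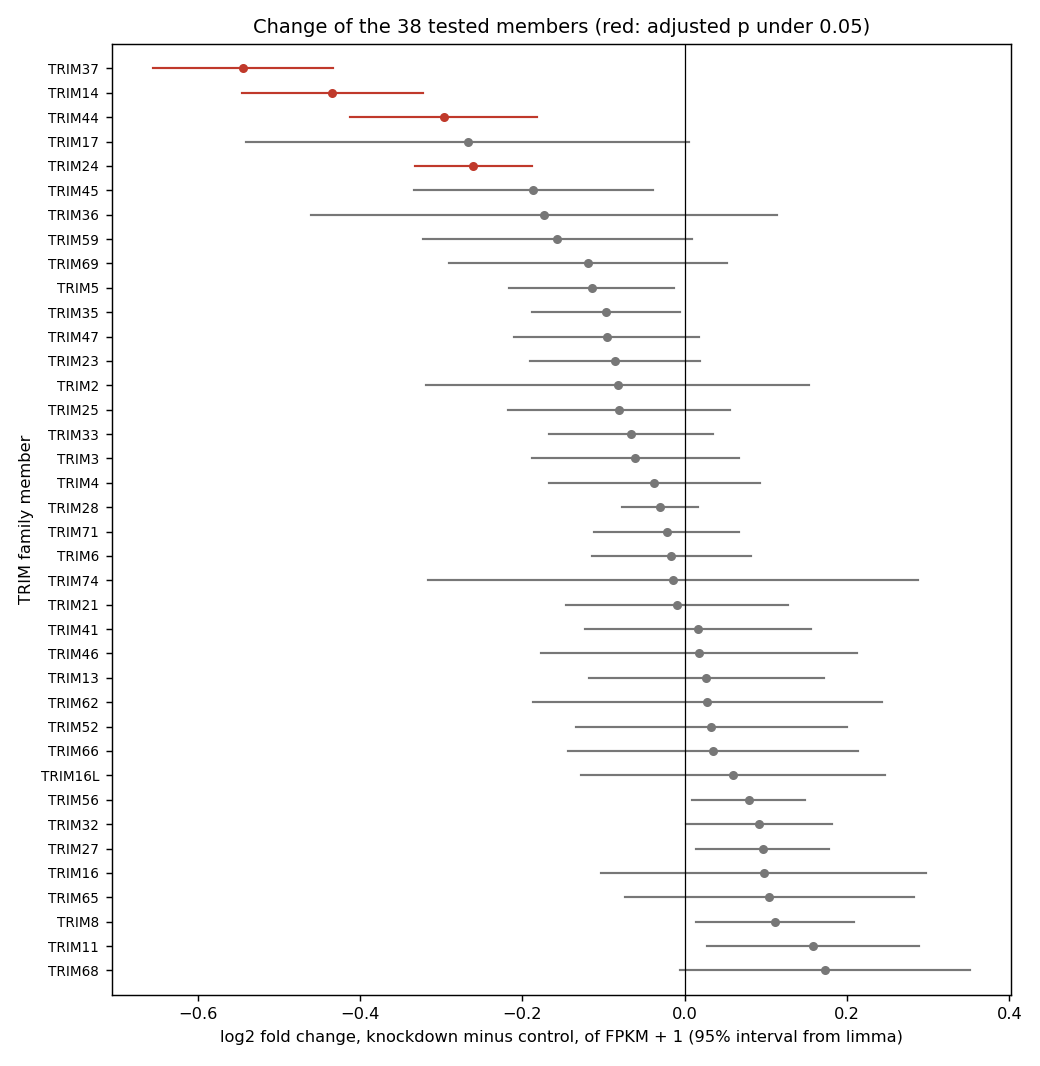
log2 fold change (knockdown minus control, of FPKM + 1) of the 38 tested members with the 95% interval from limma, ordered from the largest fall to the largest rise. The 4 members past the adjusted p of 0.05 are in red (TRIM37, TRIM14, TRIM44, TRIM24); intervals are not adjusted for the number of genes.

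TRIM37 (ENSG00000108395, chromosome 17, 58982638 to 59106921 on GRCh38) had the largest fall of the family on the log2(FPKM + 1) scale, while TRIM17, a low member that was not called by limma, had the larger ratio of control to knockdown mean (1.61 against 1.52). It is the only member with a MATH domain, acts as a ligase for histone H2A and limits the assembly of extra centrosomes, and is mutated in mulibrey nanism. Its levels were 11.02, 11.3 and 12.2 FPKM in control replicates 1 to 3 and 7.43, 7.91 and 7.44 FPKM in knockdown replicates 1 to 3. Every knockdown library was below every control library. The log2 fold change was -0.54 (SE 0.0468, limma adjusted p = 0.000691), a fall from 11.5 ± 0.637 to 7.59 ± 0.276 FPKM (SD, n = 3). On the opposite strand, exons of PPM1E cover 5.2% of the exon bases of TRIM37, and those of AC099850.1 (1.06 FPKM) cover 5.9%. PPM1E averaged 0.935 FPKM in control and 0.653 in knockdown libraries (limma log2 fold change -0.23, adjusted p = 0.133).

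TRIM14 (ENSG00000106785, chromosome 9, 98069275 to 98119212), which lacks a RING finger and serves as an adaptor for antiviral signalling at mitochondria, was at 6.01, 5.76 and 6.003 FPKM in control and at 4.12, 4.37 and 3.90 FPKM in knockdown libraries. The groups were separated by more than their own spread. The log2 fold change was -0.43 (SE 0.0470, limma adjusted p = 0.00157). Exons of NANS on the opposite strand cover 7.7% of the exon bases of TRIM14, and the sources do not say if counting used strand. NANS, which makes sialic acid, averaged 16.8 FPKM against 16.6 after knockdown (limma log2 fold change -0.016, adjusted p = 0.752).

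TRIM44 (ENSG00000166326, chromosome 11, 35662805 to 35818007), which also lacks a RING finger and instead has a ubiquitin-binding zinc finger of the kind found in deubiquitinases, was at 3.53, 3.54 and 3.505 FPKM in control and 2.81, 2.72 and 2.53 FPKM in knockdown libraries. The control libraries were almost equal to each other, and all knockdown libraries were lower. The log2 fold change was -0.30 (SE 0.0487, limma adjusted p = 0.00745).

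TRIM24 (ENSG00000122779, chromosome 7, 138460334 to 138589993) was at 16.7, 17.1 and 16.6 FPKM in control and 14.2, 13.8 and 13.5 FPKM in knockdown libraries, again without overlap. The log2 fold change was -0.26 (SE 0.0303, limma adjusted p = 0.00199). In mice, loss of Trim24 leads to liver tumours. These 4 falls stayed past the threshold under all 15 alternative settings tried, including each set of 5 libraries, with adjusted p up to 0.00813 for TRIM37, 0.0146 for TRIM14, 0.0150 for TRIM24 and 0.0316 for TRIM44.

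**Figure D3:**
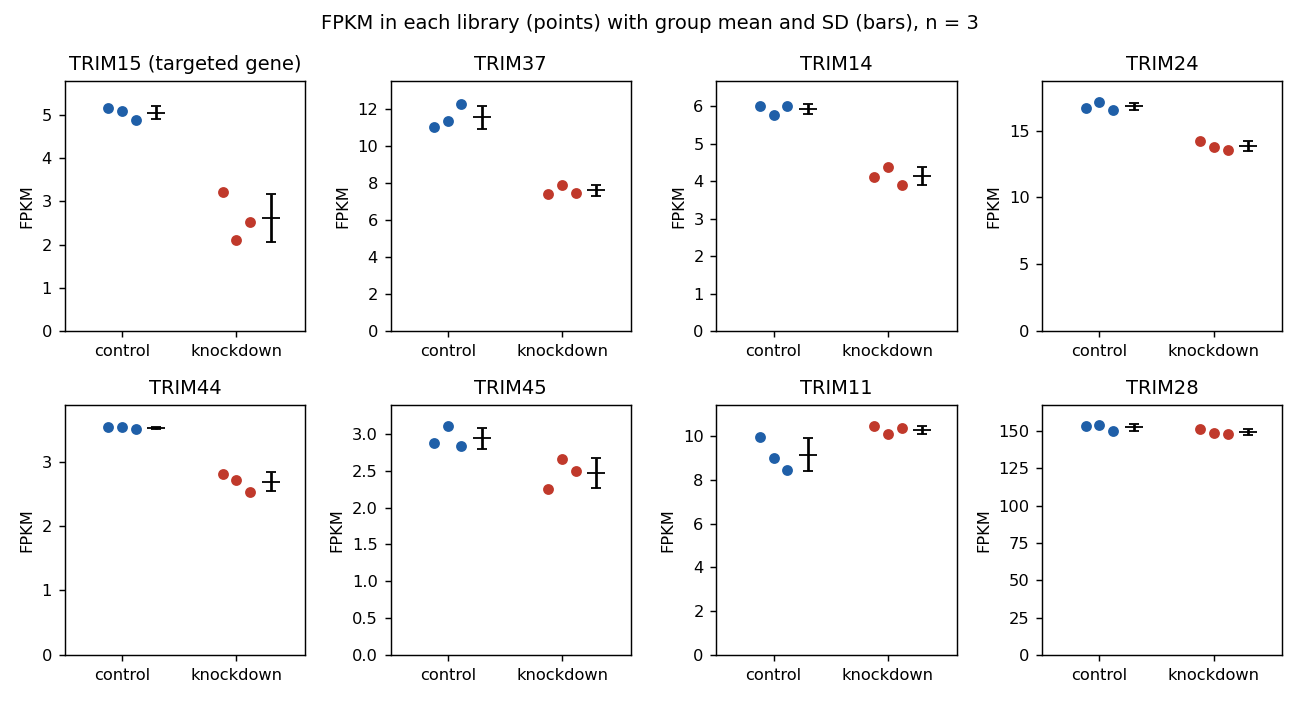
FPKM in each library (points; control blue, knockdown red) with the group mean and SD (bars, n = 3) for the targeted TRIM15, the 4 called members, TRIM45 and TRIM11, whose adjusted p lay between 0.05 and 0.1, and TRIM28. In TRIM37, TRIM14, TRIM24 and TRIM44 all red points lie below all blue points, while those of TRIM28 overlap.

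The 4 called members lie on 4 chromosomes, and TRIM14 and TRIM44 share a class (no RING finger), while the 3' UTRs of all 4 held the same short words. To find words that go with the fold change, the 15595 words of 7 bases that at least 100 genes held were each related to the log2 fold change of 11316 tested protein-coding genes outside the family, allowing for the length and GC content of the 3' UTR. The word with the most negative shift was ATGAATA (-0.11 on the log2 scale, 1763 genes), and the second was TGAATAA (-0.098, 2205 genes), which overlaps it by 6 bases, so that a run of ATGAATAA holds both. TRIM members took no part in choosing the words, but the words come from the same libraries. Of the 38 tested members, 12 (31.6%) had either word in the 3' UTR of their principal transcript, against 26.0% of the other genes. Called lower by limma were 4 of these 12 and 0 of the 26 members with neither word, of which TRIM45 and TRIM35 were lower at an unadjusted p under 0.05 and TRIM17 with voom. Among other genes, 822 of the 2939 with either word and 551 of the 8377 with neither (6.58%) were lower by limma. The share called lower among members with either word was close to that among other genes with either word. These 12 members are too few to show a difference from it.

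Both words were present in 5 tested members, TRIM37, TRIM14, TRIM44, TRIM24 and TRIM59, that is in all 4 that fell and in 1 that did not pass the threshold. Among the other genes, 1029 had both words (9.09%), and 38.1% of these were lower by limma. The 30 or fewer bases around each word in these 5 transcripts follow, 5' to 3' on the strand of the transcript (GENCODE 29, GRCh38), with the word in capitals. They are printed because these are the sequences that the called members share.
TRIM37 first site: tagacactatgTGAATAActgaagtaacac
TRIM37 second site: attgaaaaagcATGAATAAttaaatataca
TRIM14 first site: acagagggaagATGAATAcacttgacccca
TRIM14 second site: ttaataaaatgTGAATAAtgtccctttt
TRIM44 first site: tcttgtattggTGAATAAcaacactgatcc
TRIM44 second site: tttccaatgtgATGAATAAaactaataact
TRIM24 first site: gaaagaaggagATGAATAgaagaaagaaaa
TRIM24 second site: gctcctcctttTGAATAAccatgtacatat
TRIM59 first site: ttttgaatgggTGAATAAggatgatagaaa
TRIM59 second site: gttaagtatgcATGAATAtagttgagtata

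The TRIM37 stretches lie at chr17:58998850-58998879 and chr17:58998348-58998377 on the minus strand, those of TRIM14 at chr9:98085552-98085581 and chr9:98084355-98084382 on the minus strand, and those of TRIM59 at chr3:160437536-160437565 and chr3:160435644-160435673 on the minus strand. On the plus strand, those of TRIM44 lie at chr11:35812673-35812702 and chr11:35813979-35814008, and those of TRIM24 at chr7:138585139-138585168 and chr7:138589067-138589096. All are exonic, in the annotated 3' UTR. The joined run ATGAATAA occurred in 2 tested members, TRIM37 and TRIM44, and both fell. Of 728 other genes with that run, 36.3% were lower by limma. TRIM59, which has a transmembrane segment, was at 1.30, 1.28 and 1.33 FPKM in control and 1.18, 0.991 and 1.03 FPKM in knockdown libraries, without overlap (limma log2 fold change -0.16, adjusted p = 0.173). Exons of SMC4 on the opposite strand cover 19.8% of the exon bases of TRIM59, and SMC4, a condensin subunit at 21.6 FPKM in control and 18.7 in knockdown, fell (limma log2 fold change -0.20, adjusted p = 0.0279).

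The other 7 members with a word had only 1 of the words, and their log2 fold changes ran in both directions. They were -0.17 for TRIM36, -0.11 for TRIM5, -0.083 for TRIM2, -0.037 for TRIM4, 0.033 for TRIM52, 0.035 for TRIM66 and 0.10 for TRIM65, and none of the 7 was called by limma or voom, with TRIM5 alone at an unadjusted p under 0.05. The median 3' UTR was 2368 bases in members with either word and 1156.5 bases in members with neither, and 2583 and 813 bases in the other genes, so a word was found more often in long 3' UTRs. TRIM44 has the longest 3' UTR of the 4 called members (11622 bases) and TRIM37 the shortest (1175 bases). The word with the most positive shift, TCGGAGA (0.10, in 205 genes), was in the 3' UTR of 0 tested members. TRIM15 had neither low word in its 3' UTR and 1 match in the rest of its transcript. These matches are descriptions of the sequences, and the part the words have in the changes was not tested.

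**Figure D4:**
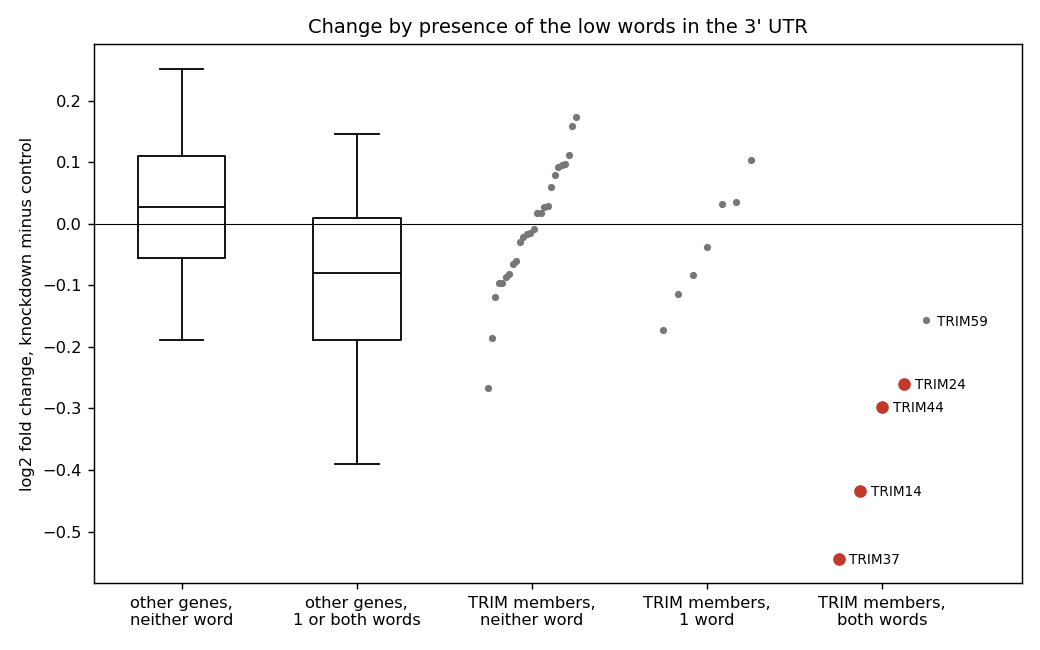
log2 fold change (knockdown minus control) by presence of ATGAATA and TGAATAA in the 3' UTR. Boxes show quartiles and the median of the other tested protein-coding genes with whiskers at the 5th and 95th percentiles, points show single TRIM members, and red points are past the adjusted p of 0.05; all 5 members with both words lie below 0, from -0.54 to -0.16.

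By class, the PHD and bromodomain members, which read chromatin, were all testable, and 1 of 3 (TRIM24) was called. Over all tested genes 19% were called, and 3 members are too few to set against that share. TRIM28 (chromosome 19, 58544091 to 58550722) was at 153, 154 and 150.01 FPKM in control and 152, 149 and 148 FPKM in knockdown libraries, with overlapping groups. Its log2 fold change was -0.030 with a 95% interval of -0.077 to 0.016 (limma adjusted p = 0.349), so a change of the size seen for TRIM24 lies outside the interval. TRIM33, which limits SMAD4 in TGF-beta signalling, averaged 6.65 ± 0.198 FPKM against 6.31 ± 0.275 after knockdown (SD, n = 3; limma adjusted p = 0.344). TRIM66, a related chromatin reader without a RING finger, was at 1.85 and 1.92 FPKM. Exons of RPL27A on the opposite strand, a gene at 139 FPKM, cover 94 exon bases of TRIM66 (0.8%). If counting ignored strand, reads of RPL27A may be part of the TRIM66 level.

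The largest class, with a PRY-SPRY or SPRY domain and 38 members, had 15 testable members. Of these, 0 were called by limma, beside 19% of all tested genes. At an unadjusted p under 0.05, 2 of the 15 were higher and 2 lower, beside 16.4% and 16.3% of all tested genes. With voom on whole reads, TRIM11, TRIM68 and TRIM27 were higher and TRIM17 was lower. TRIM11 (chromosome 1, 228393673 to 228406840) was at 9.95, 9.02 and 8.46 FPKM in control and 10.4, 10.1 and 10.4 FPKM in knockdown libraries. All knockdown libraries were above all control libraries, and control replicate 1 was the nearest to them. The log2 fold change of TRIM11 was 0.16 (SE 0.0550, limma adjusted p = 0.0930). It became 0.21 (adjusted p = 0.0216) without control replicate 1 and 0.20 (adjusted p = 0.00043) with voom on whole reads. TRIM17, which lies beside TRIM11 on the same strand of chromosome 1, had the opposite sign, with 1.04, 0.623 and 0.823 FPKM in control and 0.642, 0.456 and 0.450 FPKM in knockdown libraries. Its groups overlapped, it averaged 43.7 reads per library, and its log2 fold change was -0.27 (limma adjusted p = 0.161) with a 95% interval from -0.54 to 0.0059, and -0.65 (adjusted p = 0.0443) with voom, which has no added constant of 1 FPKM.

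Among the antiviral members of that class, TRIM25, which ubiquitinates the RNA sensor RIG-I, averaged 8.31 ± 0.457 FPKM against 7.81 ± 0.551 after knockdown. TRIM5, which binds retroviral capsids, was at 9.65 ± 0.504 and 8.83 ± 0.206 FPKM (SD, n = 3). The groups of TRIM5 did not overlap, and its limma adjusted p was 0.113. TRIM21, the cytosolic antibody receptor, was at 5.72 ± 0.372 and 5.67 ± 0.346 FPKM, and TRIM6 at 4.44 ± 0.118 and 4.38 ± 0.125 FPKM. TRIM4 was at 10.2, 11.2 and 9.80 FPKM in control and 10.6, 9.95 and 9.73 FPKM in knockdown libraries, with overlapping groups (log2 fold change -0.037, 95% interval -0.17 to 0.092, limma adjusted p = 0.695). None of these 5 members passed the threshold by limma.

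The remaining tested members of the class were TRIM27, TRIM35, TRIM41, TRIM47, TRIM62, TRIM65, TRIM68 and TRIM69. TRIM27, which ubiquitinates a component of endosomal actin assembly, was at 8.29, 8.38 and 8.33 FPKM in control and 9.07, 9.23 and 8.63 in knockdown libraries, without overlap (log2 fold change 0.096, limma adjusted p = 0.104). TRIM68, a ligase first tied to the androgen receptor, had the highest log2 fold change of the family at 0.17 (SE 0.0755, limma adjusted p = 0.166), with control replicate 2 (3.59 FPKM) above knockdown replicates 2 and 3 (3.56 and 3.57). Without that library it was 0.25 (adjusted p = 0.0441). TRIM35 (-0.097) and TRIM69 (-0.12) were lower in every knockdown library without passing the threshold. TRIM47 (-0.096), TRIM41 (0.017), TRIM62 (0.028) and TRIM65 (0.10) had overlapping groups. TRIM47 shares 51.5% of its exon bases with a gene on the opposite strand, AC087289.5, listed at 0.105 FPKM.

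The NHL repeat class, RNA-binding or neuronal ligases, was tested in full with 0 of 4 called by limma (1 higher and 0 lower at an unadjusted p under 0.05, 0 with voom). With 19% of all tested genes called by limma, 4 members are too few to show a difference from that share. TRIM71, the LIN41 protein of early development and a target of the let-7 microRNA, was at 8.57, 8.46 and 9.11 FPKM in control and 8.48, 8.74 and 8.47 in knockdown libraries, with overlapping groups (95% interval of the log2 fold change -0.11 to 0.067). TRIM32, mutated in a limb-girdle muscular dystrophy, averaged 5.85 ± 0.0712 FPKM against 6.31 ± 0.224 after knockdown (SD, n = 3), without overlap (limma adjusted p = 0.145). TRIM3 was at 3.33 and 3.15 FPKM. TRIM2 was at 1.93, 2.49 and 2.81 FPKM across the knockdown libraries, a wider spread than the 2.47 to 2.76 FPKM of control.

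Members without a named C-terminal domain had 4 tested and 0 called by limma (2 higher and 0 lower at an unadjusted p under 0.05, and the same 2 higher with voom). These 4 are again too few to set against the 19% of all tested genes called by limma. TRIM56, which supports STING and double-stranded RNA signalling, was at 11.98, 12.6 and 12.2 FPKM in control and 12.9, 13.0 and 13.0 in knockdown libraries. TRIM8, an activator of NF-kB, was at 5.01, 5.20 and 4.81 FPKM in control and 5.49, 5.61 and 5.37 in knockdown libraries. Both were higher in every knockdown library, at log2 fold changes of 0.079 and 0.11 (limma adjusted p = 0.111 and 0.110). With voom, TRIM56 gave 0.11 (adjusted p = 0.0121) and TRIM8 gave 0.16 (adjusted p = 0.0167). TRIM52 was at 1.74 and 1.80 FPKM, and TRIM74, at 27.0 reads per library, at 1.01 and 0.997 FPKM. Exons of CTC-338M12.4 on the opposite strand, a gene at 1.28 FPKM, cover 28.5% of the exon bases of TRIM52. TRIM74 and TRIM73 are near copies of TRIM50, so their values are uncertain.

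In the small classes, TRIM45, the filamin-domain member, was at 2.87, 3.10 and 2.84 FPKM in control and 2.25, 2.65 and 2.49 FPKM in knockdown libraries. Its groups did not overlap and its log2 fold change was -0.19 (SE 0.0623, limma adjusted p = 0.0835). TRIM23, which carries an ARF-type GTPase domain, averaged 5.80 ± 0.293 FPKM against 5.41 ± 0.0946 after knockdown (SD, n = 3; limma adjusted p = 0.231). TRIM13, anchored in the endoplasmic reticulum membrane, was at 1.70 and 1.75 FPKM. TRIM36 and TRIM46, which bind microtubules, were at 0.729 and 0.667 FPKM in control and 0.525 and 0.688 in knockdown, with overlapping groups. TRIM16, which lacks a RING finger, was at 0.672 and 0.786 FPKM, and its near copy TRIM16L at 0.871 and 0.950 FPKM, and reads of these copies may have been shared between them.

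Partners of TRIM proteins were read from lists by the same fit, in which 10.8% of the tested protein-coding genes were higher and 12% lower. No list was tested as a whole. Of 5 tested family members that do not carry a TRIM symbol, 1 was lower and 0 were higher by limma (2 and 0 at an unadjusted p under 0.05, 1 and 0 with voom). The lower gene was MID2, also known as TRIM1, a microtubule-binding ligase, at 3.82, 3.33 and 3.504 FPKM in control and 2.50, 2.78 and 2.65 in knockdown libraries (log2 fold change -0.32, SE 0.0593, adjusted p = 0.0114). Its paralog MID1 was at 6.97 ± 0.215 and 6.46 ± 0.170 FPKM and PML, the nuclear body protein, at 1.66 ± 0.0728 and 1.57 ± 0.106 FPKM (SD, n = 3).

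Of 19 tested E1 and E2 genes, the ubiquitin enzymes upstream of RING ligases, 7 (36.8%) were lower and 0 higher by limma, against 12% and 10.8% of the tested protein-coding genes (8 and 0 at an unadjusted p under 0.05, 8 and 1 with voom, and 1 higher without control replicate 3), with a median log2 fold change of -0.050. UBE2V2, the partner of UBE2N in making lysine-63 chains, was at 19.6, 19.6 and 22.3 FPKM in control and 14.4, 13.6 and 13.9 in knockdown libraries (-0.52, SE 0.0529, limma adjusted p = 0.00126). UBE2D3, an E2 that many TRIM ligases use, fell from 23.8 ± 0.686 to 17.7 ± 0.561 FPKM (-0.41), and UBE2H from 17.8 ± 0.411 to 13.3 ± 0.520 FPKM (-0.40; SD, n = 3). UBE2B had -0.21. The number of lower genes was 4 without knockdown replicate 2 or knockdown replicate 3, and UBE2B was among those lost.

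Of 19 tested partners of TRIM28 in gene silencing, 2 (10.5%) were higher and 3 (15.8%) lower by limma, near the protein-coding shares of 10.8% and 12%. HDAC1, a histone deacetylase, rose from 64.5 ± 1.58 to 75.6 ± 2.23 FPKM (0.23), while CBX5, a heterochromatin protein, was at -0.25 and CBX3, another, at -0.11. The call of CBX5 was lost without control replicate 1 (adjusted p = 0.0632), control replicate 3 (0.0650) or knockdown replicate 2 (0.0523). The number of higher partners was 1 without any single library except knockdown replicate 2.

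Of 24 tested genes of RIG-I, STING and NF-kB signalling, on which antiviral TRIM proteins act, 4 (16.7%) were higher and 3 (12.5%) lower by limma, beside 10.8% and 12% of protein-coding genes. The STING gene itself (TMEM173, 0.0867 FPKM in control and 0.0601 in knockdown) and CGAS (0.116 and 0.173) were too low to test. IKBKG, the regulatory NF-kB kinase subunit, rose from 2.69 ± 0.112 to 3.62 ± 0.0665 FPKM (0.32), and NFKB1 rose by 0.19 on the log2 scale, while the antiviral RNA-binding gene ZC3HAV1, a partner of TRIM25, was at -0.25. TRAF3, an adaptor that TRIM proteins ubiquitinate, was at 0.21, and its call was lost without any single library except control replicate 1. The number of lower genes was 1 without control replicate 2 or any 1 of the knockdown replicates. Of 21 interferon response genes, 2 (9.52%) were higher and 5 (23.8%) lower by limma, beside the same 10.8% and 12%. IRF2 fell from 4.23 ± 0.258 to 2.86 ± 0.353 FPKM (-0.44), OAS3 by 0.33, the receptor gene IFNAR1 by 0.29 and the kinase gene JAK1 by 0.19 on the log2 scale, and the number of higher genes was 0 without control replicate 2, control replicate 3 or knockdown replicate 3 and 3 without control replicate 1.

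Of 13 tested partners of TRIM24 and TRIM33, 1 (7.69%) was higher and 2 (15.4%) were lower by limma, beside 10.8% and 12% of protein-coding genes. The receptor gene TGFBR2 fell from 38.7 ± 1.22 to 28.98 ± 0.240 FPKM (-0.40), and SMAD4, the substrate of TRIM33, from 4.71 ± 0.139 to 3.52 ± 0.218 FPKM (-0.34; SD, n = 3). SKI, a repressor of SMAD signalling, rose from 13.9 ± 0.691 to 16.4 ± 0.351 FPKM (0.22). The share called in either direction ran from 20% to 36.8% in these lists, set beside 22.8% of the tested protein-coding genes.

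**Figure D5:**
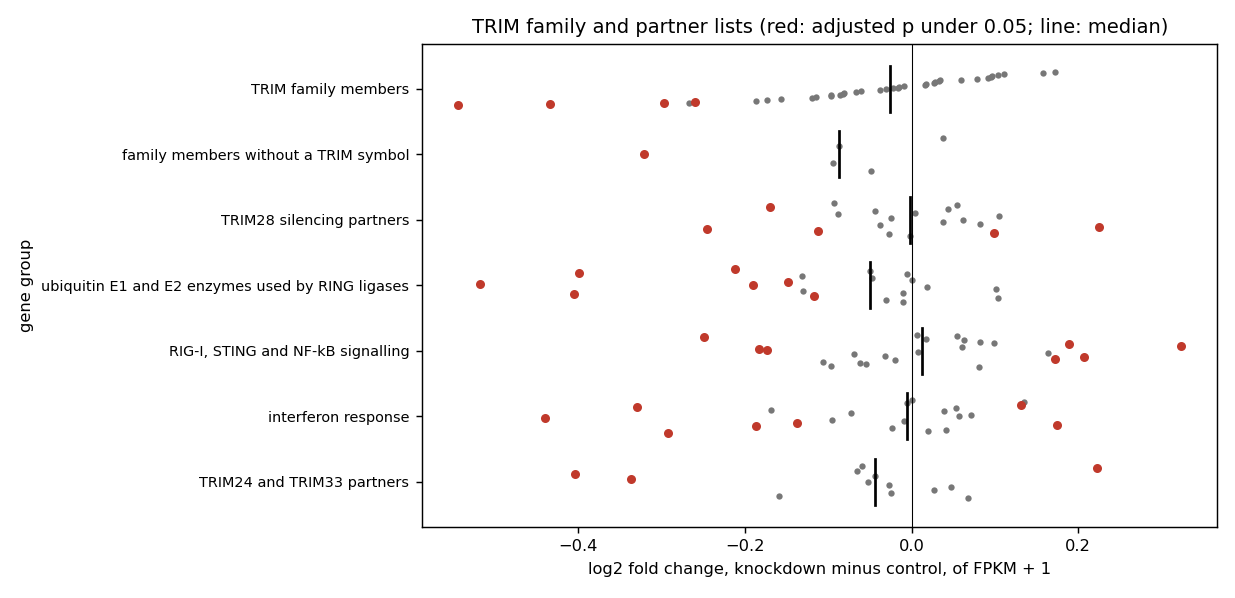
log2 fold change (knockdown minus control, of FPKM + 1) of each tested gene in the TRIM family and in 6 partner lists, with genes past the adjusted p of 0.05 in red and the median of each group as a black line. The called TRIM members all lie below 0, the ubiquitin enzymes that were called lie below 0, and the other lists with more than 1 called gene hold calls on both sides.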

How the data were processed

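The authors deposited 1 table of FPKM values, with a column per library and a gene length column, per the file headers. The submitters' processing notes list build mm10, a mouse build, but all 58735 row identifiers equal GENCODE 29 (GRCh38) in start, end and strand. The aligner and counter are not given in the sources used here. Multiplied by gene length and divided by the smallest step in its library, 100% of values were whole (tolerance 0.01), and these were taken as reads. The implied library size was 0.359 to 0.370% below the summed reads in control and 1.04 to 1.27% above them in knockdown libraries, so the FPKM carry a scaling per library.

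limma 3.58.1 (R 4.3.3) was fitted to log2(FPKM + 1) of the 14847 genes with at least 0.5 FPKM in 3 or more libraries, with a variance trend, two-sided, and Benjamini-Hochberg adjustment over all of them. The fit was tested on simulated data. Named genes were all called members, the 6 most abundant, those with adjusted p from 0.05 to 0.1, and up to 4 called genes per partner list; the other members were added so that each is accounted for, and 1 called partner gene is not reported here. The members, lists and classes were chosen with earlier results of these data known, and the word search was added after the values were seen. Its 3' UTRs are those of the APPRIS principal basic transcript, at least 50 bases long. Alternatives were other pseudocounts, filters, scalings and variance models, a replicate block, voom and leaving out each library.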

Additional observations from a re-analysis of the deposited data

How the results depend on the processing

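The 4 lower members were called under all 15 alternatives, and TRIM15 too. The number of members called higher was 0 except with voom on whole reads (5) and in the range from 0 to 1 with 1 library left out. Over all genes, 1326 higher calls became 2360 with voom (median of all log2 fold changes 0.0234, against 0.0014) and ranged from 790 to 1128 with 1 library left out (846, 854 and 790 without knockdown replicates 1, 2 and 3), and the 1498 lower calls ranged from 981 (without knockdown replicate 3) to 1217. With the replicate block, which pairs libraries that share only a number (correlations of same-numbered libraries 0.009 to 0.013), higher calls were 883, and 4 members were called. With no filter, 1888 genes of 32030 were called in either direction. The total with voom was 4186. With the transcript of the longest 3' UTR, an alternative chosen after seeing the data, 12 tested members held either low word and 4 held both, of which 4 were lower. Depth limits the lowest members: TRIM74, at 27.0 reads per library, has a 95% interval from -0.32 to 0.29. No result changed sign past the threshold in the alternatives run.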
